A study of Oryza sativa Japonica Group with 12 samples.

Results

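Rice seedlings with both copies of the gene for cytosolic glutamine synthetase 1;2 mutated (genotype gs1;2, called the mutant below) were compared at 11 days with wild type of the same cultivar, Nipponbare. The comparison holds 6 of the 12 arrays of the study: 3 arrays labelled gs1;2 at 11 d and 3 wild-type arrays at 11 d. The other 6 arrays are of the same genotypes at 7 d, 3 of each. All plants grew in water culture with 1 mM ammonium as the source of nitrogen, and the basal 5 mm of each shoot was taken for RNA, where the shoot apex, tiller buds, young leaf bases and crown root primordia lie. By the design text the 3 arrays in each group are biological replicates. Total RNA was read on the Affymetrix Rice Genome Array, on which a probe set of short oligonucleotides stands for a transcript. A value is the signal on a log2 scale, so that a difference of 1 is 2-fold, and every difference is mutant minus wild type. Such a segment is a mixture of tissues, in which fewer cells of a type and less RNA per cell cannot be told apart. The labels give neither the mutant allele nor the number of mutant lines.

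Glutamine synthetase joins ammonium to glutamate and makes glutamine, and glutamate synthase then hands the amide group on to give glutamate, so that the pair brings inorganic nitrogen into organic form. Rice has cytosolic forms of glutamine synthetase, GS1;1, GS1;2 and GS1;3, and a plastid form, GS2. GS1;2 is known for assimilating ammonium taken up by the root, and rice without it is known to form fewer tillers, the side shoots that grow from buds at the base. Cytokinin promotes and strigolactone represses the outgrowth of these buds.

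A pair of limits bears on every value below. The sample descriptions place all plants in 1 greenhouse, with 13 h of light at 26 degrees C and 11 h of darkness at 23 degrees C. The growth text, however, ends with a growth condition 3, in a chamber at 30.5 degrees C by day for 18 days, for samples 13 to 36. Titles of the mutant arrays at 11 d end in 1, 2 and 3 and those of the wild-type arrays in 13, 14 and 15. If these numbers refer to the samples of the growth text, growth condition and genotype cannot be told apart at 11 d. The plants of these arrays are labelled 11 day-old, against 18 days in growth condition 3. At 7 d the numbers 8 and 9 end titles of both genotypes, so that a title number alone does not name a sample. The second limit is a label. GLN1-2, the GS1;2 gene, was at 8.37, 8.65 and 11.44 in the arrays labelled mutant, against 12.44, 12.42 and 12.50 in the wild-type arrays. The array labelled mutant replicate 3 thus lay near wild type for the mutated gene, and a difference "without replicate 3" below is one from a fit that leaves it out. At 7 d GLN1-2 was at 7.76, 7.65 and 7.79 in the mutant and at 12.38, 12.30 and 12.46 in wild type. The difference at 11 d was -2.97 (SE 0.57, adjusted p = 0.00177), and -3.94 without replicate 3 (adjusted p = 2.95e-09). All 3 arrays labelled mutant were thus below all wild-type arrays, with replicate 3 the nearest. Adjusted p-values here and below come from limma, with a fit over all 12 arrays and a Benjamini-Hochberg adjustment over all probe sets. The threshold for passing was 0.05. The deposited signals carry no detection call, so that the size of a difference from a signal below the array medians (4.942 to 5.003) is uncertain. "Rose" and "fell" mean that the signal in the mutant passed as higher or lower than in wild type at 11 d.

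Of 57194 probe sets, 14820 passed, which is 25.9%. Of these, 7333 were higher in the mutant (12.8%) and 7487 were lower (13.1%). Without replicate 3, 13475 passed (23.6%), and 12649 probe sets passed in both fits, all of them in the same direction. That is 85.4% of the calls with all arrays and 93.9% of the calls without replicate 3. The mutant and wild-type arrays at 11 d did not overlap at 98.6% of the probe sets that passed and at 41.5% of all probe sets. Arrays that lie apart are thus not particular to any gene or list below that passed. Differences of at least 1 numbered 1004 higher and 1461 lower, those of at least 2 numbered 147 and 349, and those of at least 3 numbered 29 and 89, so that large decreases outnumbered large increases. Pearson correlations over all probe sets were 0.995 to 0.997 among the mutant arrays and 0.996 to 0.997 among the wild-type arrays, and 0.979 to 0.985 between the groups. At 7 d the same fit passed 556 probe sets (0.972%). The genotype difference at 11 d differed from that at 7 d, by the interaction term of the fit, for 11780 probe sets (20.6%).

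The largest increase of a gene with a descriptive name was that of APR-like1, whose name refers to adenosine phosphosulfate reductase, an enzyme of sulfate assimilation. It was at 11.54, 10.93 and 11.04 in the mutant, against 4.46, 4.10 and 4.12 in wild type, a difference of 6.94 (SE 0.41, adjusted p = 4.92e-07). The gene has 3 probe sets that disagree in size, with differences of 6.94, 5.63 and 0.45. In the 7 d groups it stood between these levels, at 8.16 in the mutant and 8.98 in wild type, so the wild-type arrays at 11 d were low and the mutant arrays high. Next came genes of nitrogen uptake and reduction. NIA1, a nitrate reductase gene, was at 7.48, 8.11 and 7.30 in the mutant and at 4.20, 3.60 and 3.60 in wild type (difference 3.83, SE 0.21, adjusted p = 3.18e-07). A second, dim probe set of NIA1 differed by -0.21 and did not pass. The ammonium transporter gene AMT1-2 was at 8.38, 8.44 and 8.09 in the mutant and at 5.43, 5.37 and 4.85 in wild type (difference 3.09, SE 0.17, adjusted p = 2.67e-07), while both 7 d groups were near the low level, at 5.48 in the mutant and 5.36 in wild type.

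A pair of sugar efflux transporter genes followed. SWEET15 was at 6.49, 6.61 and 6.55 in the mutant and at 3.03, 3.62 and 3.87 in wild type (difference 3.04, SE 0.29, adjusted p = 1.16e-05), and the mutant arrays lay close together. SWEET2B was at 7.56, 7.09 and 6.18 in the mutant and at 4.21, 4.03 and 4.05 in wild type (difference 2.85, SE 0.29, adjusted p = 1.78e-05), with replicate 3 the lowest of the 3. Genes for nicotianamine and mugineic acid, the chelators with which grasses move and take up iron, rose as well. The nicotianamine synthase gene NAS1 was at 5.83, 6.81 and 6.46 in the mutant and at 3.91, 3.71 and 3.27 in wild type (difference 2.73, SE 0.27, adjusted p = 1.4e-05). NAAT1, which turns nicotianamine toward mugineic acid, was at 6.95, 7.13 and 6.10 in the mutant and at 4.64, 4.37 and 4.05 in wild type (difference 2.38, SE 0.28, adjusted p = 5.53e-05). The remaining large increases came from unlike families. RR9, a type-A response regulator induced by cytokinin, was at 9.76, 9.17 and 9.84 in the mutant and at 6.81, 6.86 and 6.94 in wild type (difference 2.72, SE 0.16, adjusted p = 4.82e-07). The small heat shock protein gene HSP17.4 was at 7.70, 6.72 and 6.34 in the mutant and at 4.57, 4.15 and 4.17 in wild type (difference 2.62, SE 0.28, adjusted p = 2.53e-05). ADI1, listed as a gene of ferredoxin, which carries electrons from photosystem I, was at 11.62, 11.04 and 11.41 in the mutant and at 8.95, 8.81 and 8.53 in wild type (difference 2.59, SE 0.20, adjusted p = 2.96e-06). Its 4 probe sets all passed, with differences of 1.63 to 2.59. BC1, a COBRA-like gene needed for strong secondary walls, was at 7.72, 7.78 and 7.29 in the mutant and at 5.45, 5.05 and 5.05 in wild type (difference 2.41, SE 0.16, adjusted p = 1.18e-06). DREB1G, a cold-responsive transcription factor gene, was at 7.35, 7.71 and 8.43 in the mutant and at 5.03, 4.17 and 6.54 in wild type (difference 2.58, SE 0.45, adjusted p = 0.000974), and its wild-type arrays spread more widely than those of any gene above.

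Among decreases of genes with a descriptive name, the alpha-amylase gene AMY1.3, whose family breaks down starch, came first. It was at 4.84, 5.00 and 4.82 in the mutant and 9.44, 10.29 and 10.40 in wild type (difference -5.16, SE 0.43, adjusted p = 4.42e-06). At 7 d it was at 6.06 in the mutant and 5.62 in wild type, so the 11 d wild-type arrays were the high ones. The hexokinase gene HXK7, also listed as HXK6, showed the same pattern, at 6.63, 6.67 and 7.14 in the mutant and 9.95, 10.57 and 10.41 in wild type (difference -3.49, SE 0.17, adjusted p = 1.07e-07), with 7 d means of 6.88 in the mutant and 7.11 in wild type. GDH2, a glutamate dehydrogenase gene, was at 6.54, 6.37 and 6.74 in the mutant and at 9.53, 9.95 and 9.81 in wild type (difference -3.21, SE 0.14, adjusted p = 6.44e-08). Its 3 probe sets differed by -2.99 to -3.21. Other decreases were in genes of auxin, of a kinase tied to calcium sensors, of a protein phosphatase and of an inositol phosphate kinase. The protein phosphatase 2C gene OsPP2C45 was at 5.23, 5.51 and 6.29 in the mutant and at 10.12, 10.18 and 10.22 in wild type (difference -4.50, SE 0.32, adjusted p = 1.55e-06), although a brighter probe set of the gene differed by -0.15 and did not pass. SAUR39, known in rice to restrain auxin synthesis and transport, was at 4.45, 4.51 and 4.95 in the mutant and at 8.19, 8.48 and 8.37 in wild type (difference -3.71, SE 0.27, adjusted p = 1.55e-06). PIN4, an auxin efflux carrier gene, was at 4.31, 3.98 and 4.71 in the mutant and at 7.30, 8.06 and 7.80 in wild type (difference -3.38, SE 0.20, adjusted p = 5.26e-07). CIPK10, a kinase that acts with calcineurin B-like calcium sensors, was at 7.53, 8.11 and 7.86 in the mutant and at 10.76, 10.67 and 10.65 in wild type (difference -2.86, SE 0.16, adjusted p = 3.51e-07), and its 4 probe sets differed by -2.27 to -2.86. OsITPK3, an inositol phosphate kinase gene, was at 7.77, 7.84 and 7.97 in the mutant and at 10.59, 11.14 and 11.10 in wild type (difference -3.08, SE 0.14, adjusted p = 6.9e-08). In each of these genes the wild-type arrays were all high. BBD1, a bifunctional nuclease gene, was at 6.10, 6.16 and 6.08 in the mutant and at 9.37, 9.84 and 9.79 in wild type (difference -3.56, SE 0.19, adjusted p = 2.14e-07). The heat stress transcription factor gene HSF03 was at 4.51, 4.45 and 4.20 in the mutant and at 8.19, 8.66 and 8.53 in wild type (difference -4.08, SE 0.15, adjusted p = 1.75e-08). GLN1-2 itself and the clock gene PCL1, given with its pathway, complete these 24 genes. Without replicate 3 all 24 differences kept their sign and passed, a condition of their choice, and the largest adjusted p among them was that of DREB1G (2.28, adjusted p = 0.00495).

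**Figure D1:**
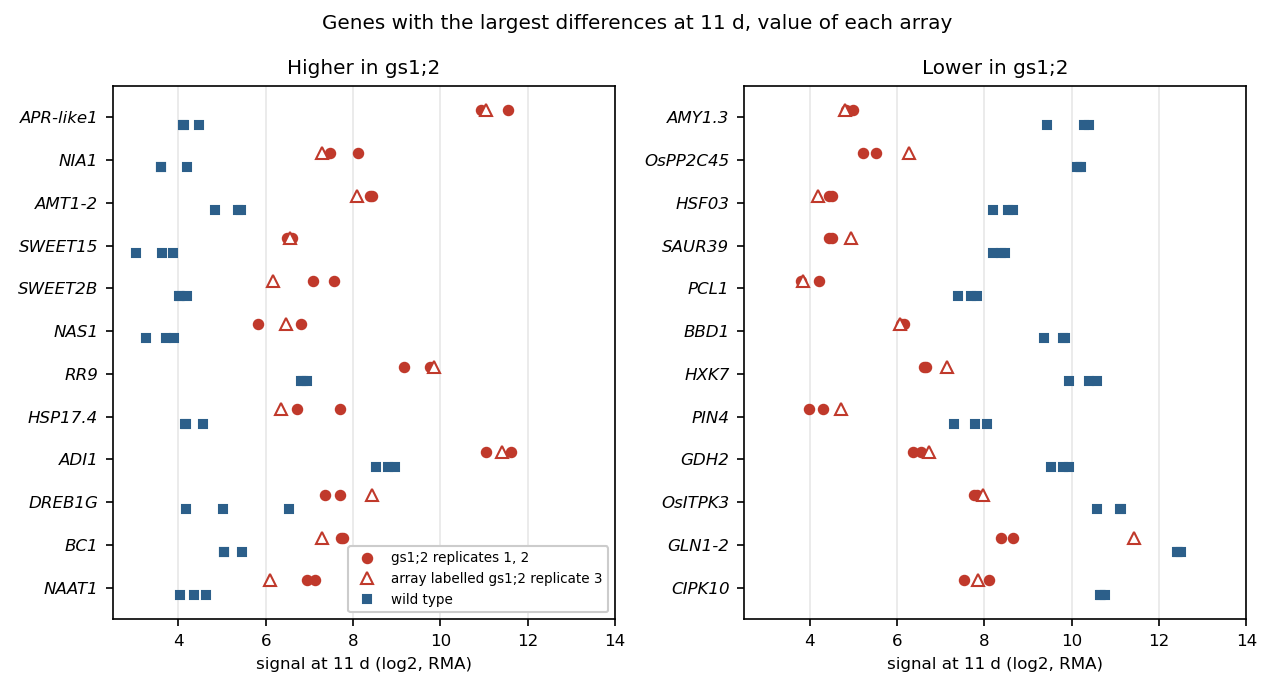
Signal (log2) of each array at 11 d for the 12 largest increases (left) and the 12 largest decreases (right) among genes with a descriptive name, red for the mutant, with an open triangle for replicate 3, and blue squares for wild type. In GLN1-2 the triangle, at 11.44, sits near the wild-type squares, and the mutant and wild-type arrays do not overlap in the 24 genes, which was a condition of their choice and holds for 41.5% of all probe sets.

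Genes known by a locus number alone held differences as large. The wild-type signals of the 3 increases, 2.78 to 3.58, were below the array medians, so that the sizes and the order of these differences are uncertain. LOC4331398 was at 10.89, 10.89 and 11.01 in the mutant, against 3.27, 3.08 and 3.58 in wild type, a difference of 7.62 (SE 0.12, adjusted p = 6.96e-12). It had the same contrast at 7 d, at 10.52, 10.60 and 10.43 in the mutant and 2.86, 3.19 and 2.93 in wild type, and replicate 3 sat with the other mutant arrays. LOC4326757 was at 11.48, 8.83 and 10.44 in the mutant and at 3.54, 3.19 and 3.33 in wild type (difference 6.90, SE 0.58, adjusted p = 4.41e-06), a wide spread within the mutant. LOC4342551 was at 9.89, 8.30 and 8.67 in the mutant and 2.78, 3.02 and 3.04 in wild type (difference 6.01, SE 0.48, adjusted p = 3.24e-06). In both loci the 7 d groups lay between, with means of 4.51 in the mutant and 5.66 in wild type for LOC4326757. Among these loci the decreases were led by LOC4334643. It was at 6.39, 8.46 and 8.29 in the mutant and 12.77, 12.96 and 12.87 in wild type (difference -5.16, SE 0.42, adjusted p = 3.49e-06). LOC4341299 was at 4.61, 5.14 and 5.91 in the mutant and at 9.94, 10.07 and 9.91 in wild type (difference -4.76, SE 0.34, adjusted p = 1.6e-06). LOC4324857 was at 6.41, 7.23 and 7.84 in the mutant and 11.57, 11.96 and 11.80 in wild type (difference -4.62, SE 0.33, adjusted p = 1.51e-06). The groups did not overlap in any of the 6 loci, which was a condition of their choice. The gene tables used here give these loci no role.

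For the gene lists each gene counts once, by the probe set with its highest mean. Over all 17905 genes, 4283 rose (23.9%) and 4085 fell (22.8%), with a median difference of 0.02, so that 46.7% passed in all. The change of the difference with age passed for 38.2% of genes. Without replicate 3, 21.9% rose and 21.3% fell. A list's counts are read against these shares, and no test of a list as a whole was run. The lists and their members were chosen with results of these data known, so that their counts describe the lists.

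**Figure D2:**
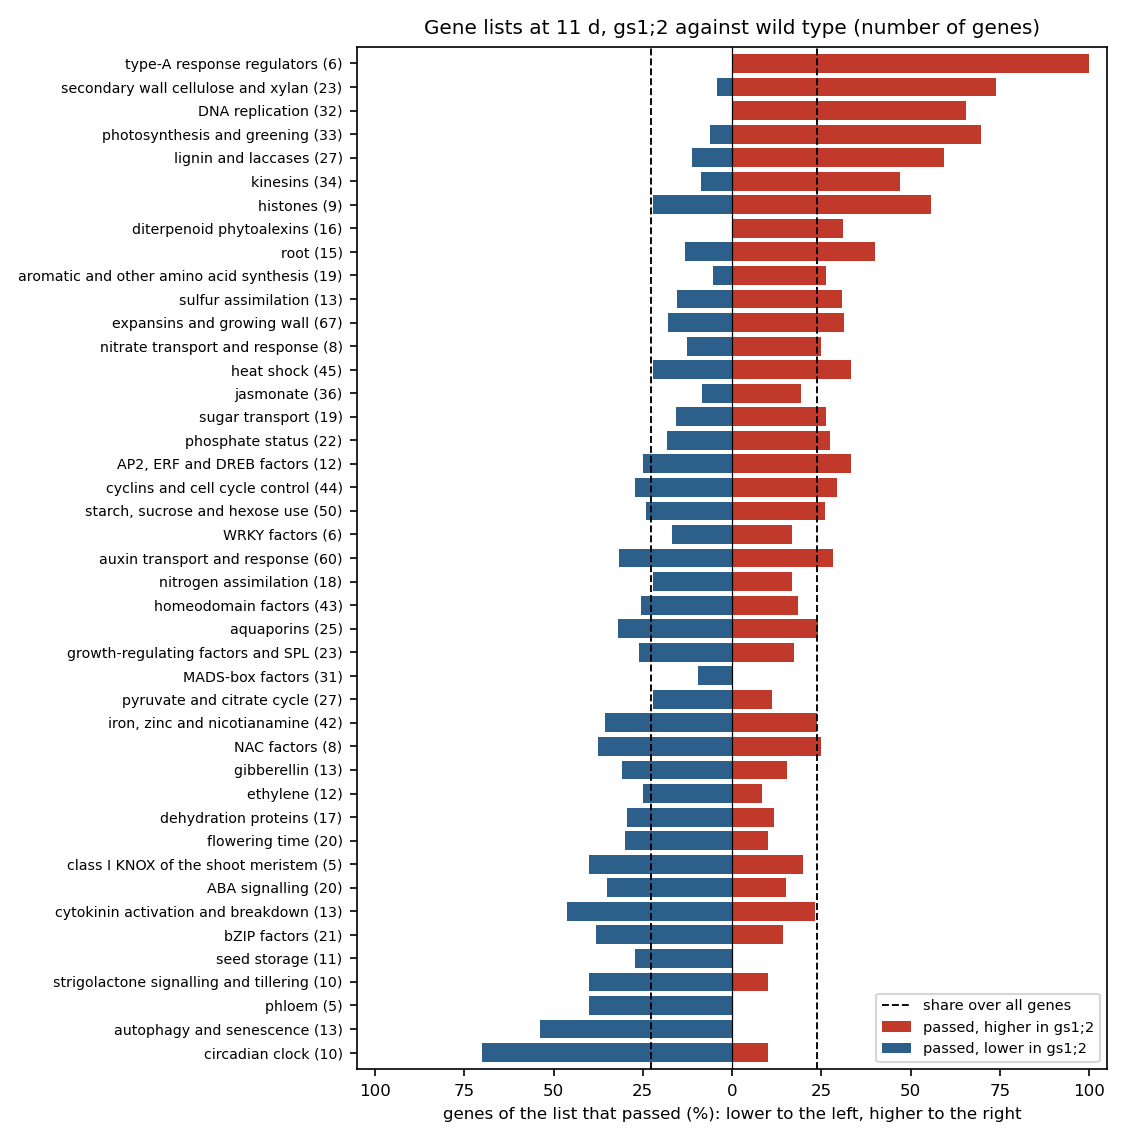
Share of the genes of each list that passed at 11 d, higher in the mutant to the right (red) and lower to the left (blue), with the number of genes in brackets. Dashed lines mark the shares over all genes, 23.9% higher and 22.8% lower, and the 6 listed type-A response regulators, at the top, reach 100%.

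Of 18 nitrogen assimilation genes, 3 rose, 4 fell and 11 did not pass, shares near those over all genes, with a median difference of 0.11. NIA1 and AMT1-2, given above, were among the 3, and GLN1-2 was among the 4. Without replicate 3 the counts were 4 and 4. The other glutamine synthetase genes had smaller differences than GLN1-2. GLN2, the plastid form, was at 9.60, 9.55 and 9.57 in the mutant and at 8.57, 8.65 and 8.59 in wild type (difference 0.97, SE 0.08, adjusted p = 3.45e-06), and its arrays were tightly grouped. GLN1-1, the other abundant cytosolic form, was at 11.74, 11.70 and 11.86 in the mutant and at 11.71, 11.47 and 11.47 in wild type and did not pass (difference 0.22, SE 0.08, adjusted p = 0.07). The groups overlapped slightly, since the lowest mutant array was just under the highest wild-type array. GLN1-3 was dim, at means of 4.75 in the mutant and 4.82 in wild type. Among glutamate synthase genes, GLT2, the only NADH-dependent form on the list, was at 3.39, 3.63 and 3.47 in the mutant and at 4.84, 5.67 and 5.00 in wild type (difference -1.67, SE 0.18, adjusted p = 3.04e-05). Fd-GOGAT, the ferredoxin-dependent form, was at means of 10.19 in the mutant and 10.02 in wild type and did not pass (difference 0.17, SE 0.08, adjusted p = 0.135). Glutamate dehydrogenase can release ammonium from glutamate. At its brightest probe set GDH2 was at 8.58, 8.67 and 8.94 in the mutant and at 11.63, 12.13 and 11.89 in wild type (difference -3.15, SE 0.15, adjusted p = 1.07e-07). GDH1 was at 10.78, 10.73 and 10.82 in the mutant and at 11.17, 11.21 and 11.21 in wild type, a small decrease that passed (difference -0.42, SE 0.07, adjusted p = 0.000608). GDH3 differed by -0.12 and did not pass.

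The ammonium transporter genes other than AMT1-2 did not pass. AMT2-1 was at 5.25, 5.01 and 4.58 in the mutant and at 4.40, 4.55 and 4.45 in wild type, with replicate 3 close to the wild-type arrays. Its difference was 0.48 (SE 0.21), and 0.66 without replicate 3 (adjusted p = 0.0362). AMT3-2 was at 6.47, 7.69 and 7.87 in the mutant and at 6.45, 5.82 and 7.36 in wild type, a wide spread in both groups. The others, AMT1, AMT2-2, AMT2-3, AMT3-1 and AMT3-3, differed by 0.12, -0.03, 0.10, -0.15 and 0.31. Of 8 genes of nitrate transport and response, 2 rose and 1 fell. NRT2.3, a high-affinity nitrate transporter gene, was at 4.88, 5.30 and 5.00 in the mutant and at 4.14, 4.18 and 4.45 in wild type (difference 0.80, SE 0.21, adjusted p = 0.013). NLP3, of a family that carries the nitrate signal, was at 9.69, 9.74 and 9.97 in the mutant and 9.19, 9.34 and 9.20 in wild type (difference 0.56, SE 0.10, adjusted p = 0.00081), and its relative NLP2 fell (-0.34). The wild-type arrays were below all mutant arrays in the first 2. Of 13 sulfur assimilation genes, 4 rose and 2 fell (3 and 1 without replicate 3). Besides APR-like1, those that rose were SAT4 (1.01, SE 0.31), of cysteine synthesis, and the S-adenosylmethionine synthase genes SAM2 (0.57, SE 0.07) and SAM1 (0.30, SE 0.08). SAT1, a serine acetyltransferase gene like SAT4, was at 9.26, 8.80 and 9.38 in the mutant and at 10.05, 10.58 and 10.50 in wild type and fell (difference -1.23, SE 0.23, adjusted p = 0.00175), as did gcs, of glutathione synthesis, by a small amount (-0.22, SE 0.07). The other 2 probe sets of gcs, also bright, differed by -0.16 and -0.08 and did not pass. Of 19 genes of aromatic and other amino acid synthesis, 5 rose (3 without any 1 of the 11 d arrays) and 1 fell. ADC1, an arginine decarboxylase gene of polyamine synthesis, was at 11.30, 11.18 and 11.03 in the mutant and at 10.00, 9.79 and 9.95 in wild type (difference 1.25, SE 0.10, adjusted p = 2.54e-06), and ADC2 rose by 0.89 (SE 0.19). DAHPS1, at the entry of the shikimate pathway, rose by 1.13 (SE 0.20), AtATP-PRT, of histidine synthesis, by 0.23 (SE 0.07), and DAPB1, of lysine synthesis, by 0.21 (SE 0.07). The gene that fell was ASA1, an anthranilate synthase gene of tryptophan synthesis (-0.53, SE 0.09).

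Type-A response regulators are induced by cytokinin and then dampen its signal. The list held the 6 found by symbol, which need not be the whole family. All 6 rose, with a median difference of 1.32 (1.23 without replicate 3, still 6 of 6). RR4 was at 8.43, 8.57 and 8.83 in the mutant and at 6.82, 6.54 and 6.30 in wild type (difference 2.06, SE 0.14, adjusted p = 1.39e-06). RR1 was at 8.89, 9.13 and 9.32 in the mutant and at 7.76, 7.69 and 7.55 in wild type (difference 1.44, SE 0.13, adjusted p = 8.27e-06). RR6 was at 11.23, 11.23 and 11.45 in the mutant and at 10.22, 10.07 and 10.29 in wild type (difference 1.11, SE 0.09, adjusted p = 2.63e-06). RR2 and RR5 complete the list, with differences of 1.20 (SE 0.12) and 0.99 (SE 0.14). In each of the 6 genes the mutant and wild-type arrays at 11 d were apart, as at 98.6% of all probe sets that passed. At 7 d the list's median difference was -0.22 with 0 passed. Genes that activate or break down cytokinin went both ways, 3 of 13 up and 6 down (46.2%), in both fits. The 3 increases were 1 without mutant replicate 1, mutant replicate 2 or wild-type replicate 2. CKX3, a cytokinin oxidase gene, was at 7.54, 7.72 and 8.18 in the mutant and at 6.44, 6.47 and 6.36 in wild type (difference 1.39, SE 0.17, adjusted p = 5.45e-05). CKX4 rose as well (0.76, SE 0.26), a call lost in 12 of 19 alternatives (values of 0.499 to 1.013), while CKX5 and CKX11 fell (-0.52 and -0.52). LOG-type enzymes release active cytokinin from its nucleotide. LOGL3 was at 10.50, 10.49 and 9.58 in the mutant and at 11.30, 11.63 and 11.60 in wild type (difference -1.32, SE 0.22, adjusted p = 0.000621), with replicate 3 the lowest. LOGL9 was at 6.63, 6.50 and 6.99 in the mutant and at 7.92, 7.63 and 7.73 in wild type (difference -1.05, SE 0.15, adjusted p = 0.000262). LOGL6 and LOGL1 fell too, by smaller amounts (-0.66 and -0.36), whereas the founding member LOG rose (0.42, SE 0.14).

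Of 10 strigolactone and tillering genes, 4 fell (40%) and 1 rose, in both fits. D14, the strigolactone receptor, was at 10.20, 10.35 and 10.67 in the mutant and at 12.20, 12.41 and 12.38 in wild type (difference -1.93, SE 0.18, adjusted p = 9.36e-06). D3, the F-box protein that acts with it, was at 5.23, 5.58 and 5.31 in the mutant and at 6.34, 6.66 and 6.43 in wild type (difference -1.10, SE 0.15, adjusted p = 0.000183). IPA1, a transcription factor that limits tiller number, was at 7.50, 7.44 and 7.69 in the mutant and at 8.20, 8.70 and 8.51 in wild type (difference -0.93, SE 0.13, adjusted p = 0.000149). SMAX1L, of the family of proteins that the receptor complex removes, was the remaining decrease (-0.80, SE 0.14). The gene that rose was CAD7 (0.65, SE 0.19), a cinnamyl alcohol dehydrogenase gene that is also among the lignin genes below. It was listed here by its other name FC1, which for this gene stands for flexible culm and not for a tillering regulator, and without it 4 of 9 genes fell (44.4%) and 0 rose. Its call was lost without wild-type replicate 1, mutant replicate 1 or mutant replicate 2 and with the 11 d arrays alone. D14 was at a mean of 10.58 in the mutant and 10.51 in wild type at 7 d, IPA1 at 7.48 in the mutant and 7.55 in wild type, so that the wild type at 11 d was the group apart. IPA1 belongs to the SPL family, which was listed with the growth-regulating factors, and of these 23 genes 4 rose and 6 fell. SPL11, SPL4 and SPL1 were lower (-0.70, -0.54 and -0.39), and SPL16, known for its part in grain shape, was higher (0.66).

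Photosynthesis and greening genes stood out by count, with 23 of 33 rising (69.7%) and 2 falling, and a median difference of 0.57. Without replicate 3 the counts were also 23 and 2, with a median of 0.59. PORA, a protochlorophyllide oxidoreductase gene, was at 10.51, 10.59 and 10.38 in the mutant and at 8.50, 8.20 and 8.04 in wild type (difference 2.25, SE 0.18, adjusted p = 3.01e-06), and the groups were far apart. PORB, its relative, was at 10.38, 10.15 and 10.12 in the mutant and at 9.08, 9.16 and 9.03 in wild type (difference 1.12, SE 0.10, adjusted p = 7.5e-06). CAO, which makes chlorophyll b, and CHLH, a magnesium chelatase subunit gene, rose by 1.99 (SE 0.19) and 1.20 (SE 0.19). A second probe set of CHLH, at means of 8.23 in the mutant and 7.96 in wild type, differed by 0.27 and did not pass. PSAG, a photosystem I subunit gene, was at 8.46, 8.13 and 8.35 in the mutant and at 6.72, 6.70 and 6.72 in wild type (difference 1.60, SE 0.13, adjusted p = 2.88e-06). RCABP69, a light-harvesting chlorophyll-binding protein gene, was at 11.52, 11.17 and 11.15 in the mutant and at 9.60, 9.73 and 9.46 in wild type (difference 1.69, SE 0.15, adjusted p = 6.21e-06). The 2 genes that fell were LIR1, a light-regulated gene, at 9.54, 9.61 and 10.21 in the mutant and 12.27, 12.44 and 12.25 in wild type (difference -2.53, SE 0.28, adjusted p = 2.82e-05), and THF1, needed for thylakoid formation in Arabidopsis (-0.34, SE 0.08). The mean signal of the 33 genes was 9.54 to 9.82 in the mutant arrays and 8.88 to 9.03 in the wild-type arrays. The list is also the marker list of green tissue, so that a greener segment and more RNA of these genes in each green cell cannot be told apart.

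Genes of chlorophyll breakdown and autophagy, the recycling of cell contents, fell or did not pass. Of 13 autophagy and senescence genes, 7 fell (53.8%) and 0 rose, the same counts without replicate 3, and the median was -0.30. NYC1, a chlorophyll b reductase gene, was at 7.81, 7.59 and 7.92 in the mutant and at 8.97, 9.25 and 9.06 in wild type (difference -1.32, SE 0.12, adjusted p = 7.67e-06). NOL, its partner, was at 8.21, 8.06 and 8.01 in the mutant and at 8.87, 9.11 and 9.08 in wild type (difference -0.93, SE 0.12, adjusted p = 8.11e-05). OSL2, a gene induced in ageing leaves, was at 10.23, 10.02 and 10.02 in the mutant and at 10.87, 11.07 and 10.99 in wild type (difference -0.89, SE 0.10, adjusted p = 3.29e-05). ATG8 proteins coat the vesicles that carry cell material to the vacuole. ATG8C was at 11.08, 11.09 and 11.18 in the mutant and at 11.79, 11.84 and 11.80 in wild type (difference -0.70, SE 0.09, adjusted p = 0.000133). In these 4 genes all mutant arrays were below all wild-type arrays. ATG8B, ATG8D and ATG12 complete the 7, with differences of -0.65 (SE 0.09), -0.47 (SE 0.08) and -0.30 (SE 0.09). The members that did not pass include the senescence genes SGR (-0.20) and SAG12 (-0.11).

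**Figure D3:**
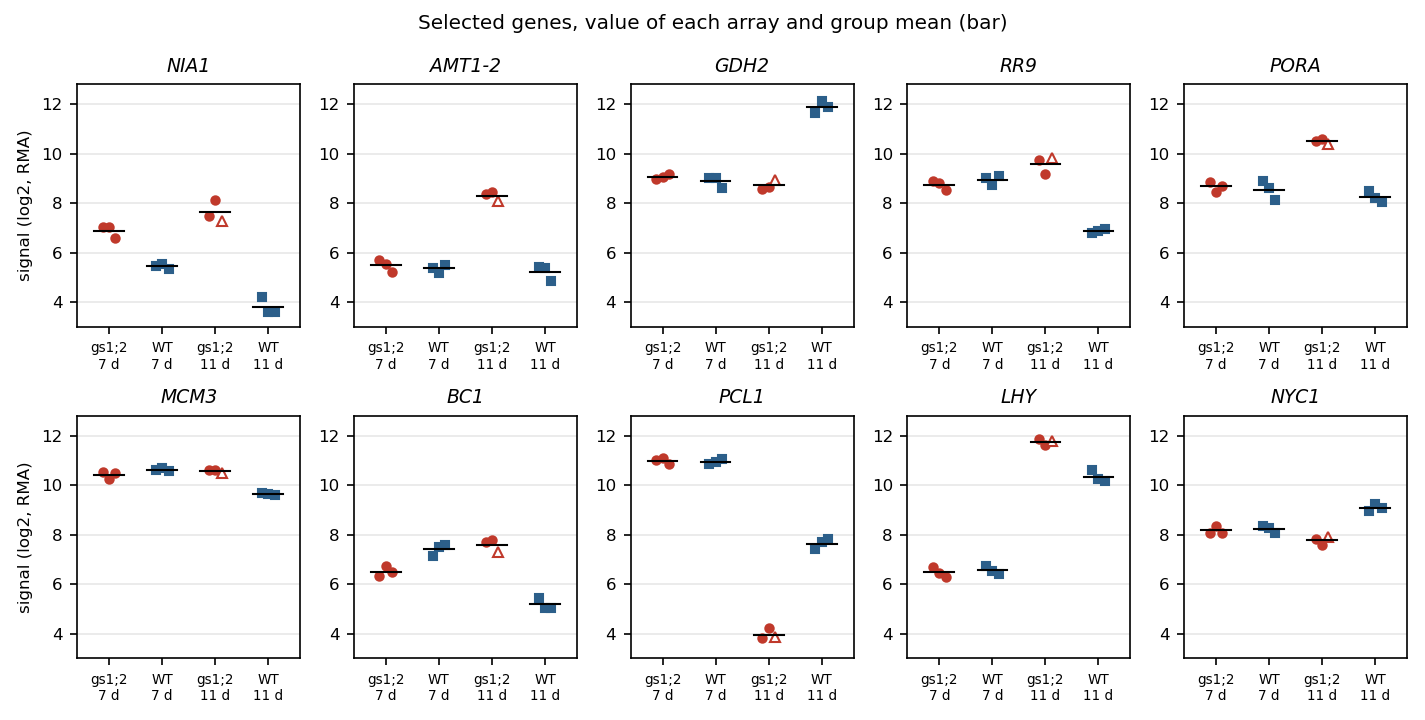
Signal (log2) of each array in the mutant and wild type at 7 d and at 11 d for 10 genes, with the group mean as a bar and replicate 3 of the mutant at 11 d as an open triangle; GDH2 is shown at its brightest probe set. For GDH2, RR9, MCM3, BC1 and NYC1 the wild type at 11 d is the group apart, whereas for AMT1-2 and PORA it is the mutant at 11 d. PCL1 and LHY differed between the 7 d and 11 d arrays in both genotypes, and the time of day of the harvests is not given.

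Genes of DNA replication rose in 21 of 32 cases (65.6%) and fell in 0, with a median of 0.46, and the counts were the same without replicate 3. The MCM proteins form the helicase that opens DNA ahead of the replication fork. MCM3 was at 10.61, 10.62 and 10.50 in the mutant and at 9.68, 9.65 and 9.61 in wild type (difference 0.93, SE 0.09, adjusted p = 8.05e-06). MCM5 was at 10.04, 10.06 and 9.94 in the mutant and 9.22, 9.02 and 8.99 in wild type (difference 0.94, SE 0.09, adjusted p = 1.11e-05). MCM2 and OsMCM6 rose by 0.83 (SE 0.09) and 0.83 (SE 0.09). RPA32A, a subunit of the single-strand binding protein, and PCNA, the sliding clamp, rose by 1.03 (SE 0.12) and 0.82 (SE 0.09). At 7 d MCM3 was at a mean of 10.43 in the mutant and 10.62 in wild type, so that the wild type at 11 d was the low group. Kinesins, some of which are motors of the spindle and the dividing cell plate, rose in 16 of 34 (47.1%) and fell in 3. Without replicate 3 the counts were 17 and 3. The increases were small, at most 0.54, as in KIN14L (0.54, SE 0.07), KIN5A (0.48, SE 0.07), KIN7F (0.45, SE 0.07) and KIN7K (0.43, SE 0.07). Those that fell were KIN14M (-0.68), KIN14O (-0.40) and KIN14K (-0.34). Of 9 histone and histone chaperone genes 5 rose, all of them H2B genes, from 0.29 for H2B.11 over H2B.6 (0.31), H2B.7 (0.35) and H2B.5 (0.37) to 0.69 for H2B.10. The 2 that fell, SSRP1-B (-0.32) and SSRP1-A (-0.23), code for chaperone subunits and not for histones. Regulators of the cycle were split, with 13 of 44 up and 12 down. The inhibitor gene KRP6 was at 7.75, 7.71 and 8.17 in the mutant and at 9.48, 9.36 and 9.51 in wild type (difference -1.57, SE 0.13, adjusted p = 4.28e-06). SMR1, another inhibitor gene, was at 9.12, 9.18 and 9.23 in the mutant and 10.50, 10.83 and 10.80 in wild type (difference -1.53, SE 0.11, adjusted p = 2.05e-06). CYCD2-2, a D-type cyclin gene, was at 8.60, 8.63 and 8.31 in the mutant and at 7.59, 7.42 and 7.70 in wild type (difference 0.94, SE 0.12, adjusted p = 8.04e-05), and CYCP2-1, of another cyclin class, rose by 1.43 (SE 0.16).

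Secondary wall genes rose in 17 of 23 cases (73.9%), 16 without replicate 3, with a median of 0.48. The one that fell was TBL3 (-0.64, SE 0.16). Xylan is the polymer that binds cellulose in these walls. GUT1, a xylan synthesis gene, was at 9.95, 9.89 and 9.62 in the mutant and at 8.43, 7.82 and 8.02 in wild type (difference 1.73, SE 0.16, adjusted p = 7.55e-06). GT43A, of a family that extends the xylan backbone, was at 9.13, 9.08 and 8.97 in the mutant and 7.97, 7.74 and 7.83 in wild type (difference 1.21, SE 0.08, adjusted p = 8.55e-07). TBL11, of a family that acetylates wall polymers, was at 5.94, 6.0 and 5.68 in the mutant and at 4.38, 4.04 and 4.53 in wild type (difference 1.56, SE 0.15, adjusted p = 1.38e-05). The cellulose synthase genes of the secondary wall, CESA4, CESA7 and CESA9, are the xylem markers and rose by 0.95 (SE 0.14), 1.03 (SE 0.15) and 0.69 (SE 0.14). At 7 d the group means of all 3 were lower in the mutant, CESA7 being at 9.00, 9.45 and 9.13 in the mutant against 9.65, 10.01 and 10.05 in wild type, so that the difference had opposite signs at the 2 ages. Lignin genes rose in 16 of 27 (59.3%) and fell in 3, with a median of 0.65. The 4-coumarate ligase gene 4CL2 was at 6.36, 5.69 and 6.04 in the mutant and at 4.38, 4.30 and 3.98 in wild type (difference 1.81, SE 0.18, adjusted p = 1.39e-05). CAD2, of the last step to lignin monomers, was at 10.29, 10.40 and 10.11 in the mutant and 9.34, 8.88 and 8.84 in wild type (difference 1.25, SE 0.14, adjusted p = 3.19e-05). Laccases link the monomers, and they went both ways. LAC23 was at 6.87, 6.82 and 6.79 in the mutant and at 5.79, 4.94 and 5.57 in wild type (difference 1.40, SE 0.17, adjusted p = 5.36e-05). LAC7 was at 7.11, 7.03 and 6.80 in the mutant and at 9.44, 9.67 and 9.57 in wild type (difference -2.58, SE 0.26, adjusted p = 1.67e-05), the largest decrease of the list, and the other 2 that fell were CAD8C (-0.59) and CAD1 (-0.24). Growing-wall genes were near the shares over all genes, 21 of 67 up and 12 down. CSLF6, which makes mixed-linkage glucan, was at 10.88, 10.72 and 10.87 in the mutant and at 9.13, 8.75 and 8.81 in wild type (difference 1.93, SE 0.10, adjusted p = 2.61e-07), CESA5 rose by 0.98 (SE 0.09), and the expansin-like genes EXLA2 and EXLA4 differed in sign, at -1.86 (SE 0.13) for the first and 1.05 (SE 0.09) for the second.

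The circadian clock runs on genes that peak at set times of day. Of 10 clock and photoreceptor genes 7 fell and 1 rose, in both fits, and the median was -0.72. PCL1, part of the evening complex, was at 3.81, 4.21 and 3.86 in the mutant and at 7.40, 7.69 and 7.83 in wild type (difference -3.68, SE 0.13, adjusted p = 1.4e-08), while at 7 d it was at 11.01, 11.09 and 10.87 in the mutant and 10.85, 10.93 and 11.06 in wild type. PRR1, the rice TOC1, which peaks in the evening, was at 7.85, 8.15 and 8.18 in the mutant and at 9.77, 10.12 and 10.08 in wild type (difference -1.93, SE 0.12, adjusted p = 5.43e-07). GI, which peaks late in the day, was at 10.66, 10.86 and 10.86 in the mutant and at 11.88, 11.96 and 12.01 in wild type (difference -1.16, SE 0.07, adjusted p = 6.7e-07). LHY, the morning gene, was the one that rose, at 11.86, 11.62 and 11.77 in the mutant and 10.63, 10.25 and 10.18 in wild type (difference 1.40, SE 0.14, adjusted p = 1.44e-05), and at 7 d it was at 6.70, 6.46 and 6.28 in the mutant and 6.74, 6.53 and 6.42 in wild type. The other members that fell were PRR95 (-1.32, SE 0.30), PHYA (-0.79, SE 0.14), phyC (-0.65, SE 0.08) and PRR73 (-0.37, SE 0.07). PCL1, PRR1 and GI were thus lower and LHY higher in every mutant array than in any wild-type array at 11 d. The time of day of the harvests is not given in the labels, and its part in these differences, or in those of other genes with a daily rhythm, was not tested. Of 20 flowering time genes 6 fell and 2 rose. Besides GI, those that fell were SE5, of phytochrome chromophore synthesis (-0.86), MADS56 (-0.79), Hd1, a photoperiod regulator (-0.70), Hd18 (-0.53) and DTH8 (-0.42), and those that rose were SPIN1 (0.41) and FTIP1, needed to move florigen (0.31).

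In sugar use and transport the counts were near those over all genes while single differences were large. Of 50 genes of starch, sucrose and hexose use 13 rose and 12 fell. SUS4, a sucrose synthase gene, was at 7.91, 7.73 and 7.79 in the mutant and at 9.85, 10.17 and 10.01 in wild type (difference -2.20, SE 0.14, adjusted p = 8.61e-07). SPS2 (LOC9267741), a sucrose phosphate synthase gene, was at 8.81, 8.67 and 8.81 in the mutant and 7.87, 7.72 and 7.71 in wild type (difference 0.99, SE 0.08, adjusted p = 4.08e-06). Of 19 sugar transporter genes 5 rose and 3 fell. Besides SWEET15 and SWEET2B, SWEET16 (0.86), SUT4 (0.55) and SWEET11 (0.46) rose. SWEET14 was at 6.74, 6.57 and 6.64 in the mutant and at 9.26, 9.64 and 9.35 in wild type and fell (difference -2.77, SE 0.24, adjusted p = 5.47e-06). SUT1, which loads sucrose into the phloem, was at 9.03, 9.10 and 8.63 in the mutant and at 9.99, 10.15 and 10.00 in wild type (difference -1.13, SE 0.15, adjusted p = 0.000106), and SWEET1B was the remaining decrease (-0.37). Of 27 genes of pyruvate use and the citrate cycle 3 rose and 6 fell. Pyruvate phosphate dikinase makes phosphoenolpyruvate from pyruvate. PPDKB was at 9.47, 9.16 and 9.47 in the mutant and at 10.89, 11.11 and 11.30 in wild type (difference -1.73, SE 0.15, adjusted p = 5.95e-06). PPDK2 was at 6.06, 6.13 and 6.29 in the mutant and 7.70, 8.07 and 7.97 in wild type (difference -1.75, SE 0.13, adjusted p = 1.59e-06). NADP-ME2, a malic enzyme gene, fell by 0.65 (SE 0.08).

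Of 42 iron, zinc and nicotianamine genes 10 rose and 15 fell (35.7%). NAS2 was at 6.99, 7.35 and 7.92 in the mutant and at 5.04, 5.37 and 5.15 in wild type (difference 2.23, SE 0.18, adjusted p = 3.02e-06), so that with NAS1 and NAS3 (0.75, SE 0.09) all 3 nicotianamine synthase genes of the list rose. The zinc transporter gene ZIP7 was at 5.68, 6.04 and 6.18 in the mutant and at 7.17, 7.11 and 7.01 in wild type (difference -1.13, SE 0.12, adjusted p = 3.09e-05). ZIP6 was at 9.10, 9.10 and 9.11 in the mutant and 9.73, 9.79 and 9.71 in wild type (difference -0.65, SE 0.07, adjusted p = 2.55e-05). YSL15, which takes up iron bound to mugineic acid, was at 6.86, 6.38 and 7.06 in the mutant and at 7.59, 7.69 and 7.73 in wild type (difference -0.91, SE 0.17, adjusted p = 0.0018), whereas at 7 d it was the higher in the mutant, at a mean of 7.47 in the mutant against 6.60 in wild type. The vacuolar iron transporter genes VIT1 and VIT2 differed in sign, at 1.15 (SE 0.19) for the first and -1.28 (SE 0.17) for the second. Of 22 phosphate genes 6 rose and 4 fell. SPX4, a phosphate sensor gene, was at 7.84, 7.72 and 8.05 in the mutant and at 8.74, 8.91 and 8.93 in wild type (difference -0.99, SE 0.09, adjusted p = 9.33e-06), and the other decreases were in the transporter gene PHT1-1 (-0.80), in SPX5 (-0.68) and in the regulator gene PHR3 (-0.62). The galactolipid synthase genes MGD1 and MGD3 rose by 0.79 (SE 0.09) and 0.61 (SE 0.10), and the exporter-like genes PHO1-3 and PHO1-2 by 1.42 and 0.83. The other 2 probe sets of PHO1-2, at lower signals, differed by -0.03 and 0.14 and did not pass.

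Abscisic acid, the hormone of water shortage, signals through the SAPK kinases. SAPK9 was at 6.75, 6.55 and 6.70 in the mutant and at 9.18, 9.56 and 9.50 in wild type (difference -2.75, SE 0.11, adjusted p = 4.2e-08). SAPK10 was at 6.68, 6.58 and 6.88 in the mutant and at 7.97, 7.88 and 8.14 in wild type (difference -1.29, SE 0.11, adjusted p = 4.26e-06), and SAPK1 fell by 1.20 (SE 0.13). The list of abscisic acid signalling genes, with kinases, phosphatases, a receptor and bZIP factors, held 20 genes, of which 7 fell and 3 rose, namely the transcription factor gene BZIP23 (0.52), PP2C53 (0.28) and ABIL1 (0.23), of which PP2C53 was lost in 7 of 19 alternatives, without replicate 3 among them. Of 17 genes for dehydration proteins 2 rose and 5 fell (3 without mutant replicate 1 or mutant replicate 2). RAB21, a dehydrin gene that abscisic acid induces, was at 7.71, 5.88 and 6.93 in the mutant and at 9.50, 9.08 and 9.15 in wild type (difference -2.40, SE 0.34, adjusted p = 0.000215), with a wide spread within the mutant. The dehydrin gene rab25 was at 4.97, 5.05 and 5.09 in the mutant and 6.34, 6.68 and 6.40 in wild type (difference -1.44, SE 0.09, adjusted p = 6.12e-07). Of 60 auxin genes 17 rose and 19 fell. The carrier gene PIN5 was at 6.16, 6.08 and 6.76 in the mutant and at 4.62, 4.35 and 4.23 in wild type (difference 1.94, SE 0.15, adjusted p = 3.19e-06), and the response factor gene ARF10 rose by 1.5 (SE 0.09). In the ethylene list the receptor genes ETR2 and ERS1 and the transcription factor gene EIL1A fell (-1.10, -0.60 and -0.88), and 1 of 12 rose, EIL1B (1.26), which did not pass without replicate 3 (1.24, adjusted p = 0.0574). In the gibberellin list GA20OX3, of the last steps of synthesis, was at 8.91, 8.66 and 9.04 in the mutant and at 9.62, 9.60 and 9.66 in wild type (difference -0.76, SE 0.09, adjusted p = 7.06e-05), and CYP88A5, of an earlier step, the receptor gene gid1 and ks1 were the others of 4 that fell (-0.79, -0.78 and -0.33). The 2 of 13 gibberellin genes that rose were GAMYB (0.34) and SLRL1 (0.31), and 0 rose without any 1 of the wild-type arrays at 11 d. Of 36 jasmonate genes 7 rose and 3 fell, and without replicate 3 the counts were 13 and 3. OPR1, an oxophytodienoate reductase gene, was at 7.04, 7.00 and 7.17 in the mutant and at 5.19, 4.88 and 5.66 in wild type (difference 1.83, SE 0.17, adjusted p = 1.09e-05), and the genes that fell were the lipoxygenase gene LOX3 (-2.26, SE 0.38) and the co-receptor genes COI1B (-0.75) and COI1A (-0.40).

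Transcription factor families held single members with large differences. WOX11 and WOX6 are homeodomain factors, of which WOX11 is known to drive crown root growth in rice. WOX11 was at 7.18, 6.49 and 6.45 in the mutant and at 9.03, 9.26 and 9.07 in wild type (difference -2.41, SE 0.25, adjusted p = 2.29e-05). WOX6 was at 5.67, 4.84 and 4.93 in the mutant and at 7.04, 7.29 and 7.27 in wild type (difference -2.05, SE 0.20, adjusted p = 1.25e-05). In both the replicates of the mutant spread more than those of wild type, and of 43 homeodomain genes 8 rose (5 to 8 with 1 array left out) and 11 fell. NAC6, a stress-responsive NAC factor, was at 6.83, 7.66 and 7.15 in the mutant and at 9.03, 9.14 and 9.19 in wild type (difference -1.90, SE 0.22, adjusted p = 4.07e-05), and NAC068 and NAC7 fell too (-1.46 and -0.79), while NAC5 and NAC2 rose (0.55 and 0.33), out of 8. BZIP52 was at 8.35, 8.34 and 8.55 in the mutant and at 10.71, 11.01 and 10.94 in wild type (difference -2.47, SE 0.17, adjusted p = 1.31e-06), and 8 of 21 bZIP genes fell against 3 that rose. Of 31 MADS-box genes, a family of floral and phase-change regulators, 0 rose and 3 fell, MADS56, MADS57 (-0.55) and MADS20 (-0.39), shares under those over all genes. The list was dim, with a mean signal of 4.87 to 4.97 in the mutant arrays and 5.00 to 5.04 in the wild-type arrays, near the array medians. The part of dim signals in its low shares was not tested. Of 6 WRKY genes, a family of defence regulators, WRKY76 rose (1.95, SE 0.54) and WRKY62 fell (-1.74, SE 0.37). Of 12 AP2, ERF and DREB genes 4 rose, all of them DREB1 genes of the cold response, and 3 fell. DREB1E was at 8.13, 8.36 and 8.72 in the mutant and at 6.70, 6.31 and 7.45 in wild type (difference 1.58, SE 0.23, adjusted p = 0.000229), and DREB1B and DREB1C rose by 1.11 (SE 0.23) and 0.68 (SE 0.14). Of 45 heat shock genes 15 rose and 10 fell, with HSP26.2, of the small heat shock proteins, at 10.31, 10.17 and 9.88 in the mutant and 8.59, 8.47 and 8.75 in wild type (difference 1.52, SE 0.11, adjusted p = 1.77e-06). Of 25 aquaporin genes 6 rose and 8 fell (5 to 9 with 1 array left out), with TIP4-1, of the vacuolar membrane, at 9.16, 9.40 and 8.79 in the mutant and 11.19, 11.19 and 11.05 in wild type (difference -2.03, SE 0.17, adjusted p = 5.36e-06).

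Markers of the tissues that a basal segment can hold were read as whole lists. Class I KNOX genes mark the shoot meristem, and of 5 members OSH71 and OSH3 fell and OSH6 rose (-0.52, -0.51 and 0.29), but without replicate 3 only OSH71 passed (-0.54). OSH1 was at 11.71, 11.63 and 11.66 in the mutant and 11.68, 11.46 and 11.52 in wild type, far above the median signal of an array. The mean signal of the list ran from 8.56 to 8.65 in the mutant and from 8.64 to 8.82 in wild type. Root markers rose in 6 of 15 (4 without replicate 3, and 3 to 6 with other arrays left out) and fell in 2, with a mean signal of 5.48 to 5.60 in the mutant and 5.29 to 5.35 in wild type. SCR1, which patterns the endodermis of the root and also acts in leaves, was at 7.15, 7.08 and 7.21 in the mutant and at 6.06, 5.58 and 5.93 in wild type (difference 1.29, SE 0.14, adjusted p = 2.36e-05), SHR1 rose by 0.58 (SE 0.08) and Lsi2, a silicon exporter gene of the root, by 0.78 (SE 0.20), while OsCASP1, of the Casparian strip, and PHT1-1 fell (-1.09 and -0.80). Of 5 phloem genes 2 fell, SUT1 and RPP16 (-0.48, SE 0.08), and mean signals ran from 9.86 to 10.01 in the mutant and from 10.23 to 10.24 in wild type. Seed storage genes were dim, with a mean signal of 4.45 to 4.54 in the mutant and 4.71 to 4.85 in wild type, and the glutelin gene GLUA-2 was at 6.86, 6.89 and 6.83 in the mutant and 8.78, 8.97 and 9.18 in wild type (difference -2.12, SE 0.13, adjusted p = 5.71e-07). The 4 genes of floral and axillary meristems held 1 that rose, FON1 (0.55, SE 0.11). The part of the tissue make-up of the segment in the differences above was not tested.

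The array labelled mutant replicate 3 was set against the other mutant arrays at the 13475 probe sets that passed without it, which its own values did not choose. Its position was taken as its distance from the wild-type mean, as a share of the distance of the mutant replicates 1 and 2, so that 0 is wild type and 1 the other mutant arrays. The median position was 0.86, with quartiles of 0.68 and 1.03, and at 1673 of these probe sets (12.4%) it lay nearer to wild type. By the same measure replicate 1 had a median of 1.03 and replicate 2 of 0.99, and 4.82% and 4.63% of probe sets lay nearer to wild type. At differences of at least 2, replicate 3 lay nearer to wild type at 32 of 532 probe sets (6.02%), against 13 of 467 for replicate 1 and 4 of 513 for replicate 2. At most probe sets replicate 3 thus lay nearer to the other mutant arrays than to wild type, and GLN1-2, at a position of 0.26, was among those where it did not. Of 224 genes named here that passed, 211 passed without replicate 3 as well. The 13 that did not were EIL1B, OSH3, OSH6, SAT4, gcs, DAPB1, AtATP-PRT, GAMYB, PP2C53, FTIP1, NAC5, OsCASP1 and Lsi2, with adjusted p-values of 0.0504 to 0.124, and AMT2-1 and MT-1-4b passed without replicate 3 and not with it. The mutant and wild-type arrays did not overlap in 214 of the 224 genes (95.5%), a condition of choice for some of them, against 98.6% of all probe sets that passed and 41.5% of all probe sets. Of 50 genes named here that passed and have more than 1 probe set, 24 have another that did not pass. It reached a signal of 5 in a group in 9 of them, namely CHLH, gcs, PHO1-2, OsPP2C45, EIL1A (-0.12), PHT1-1 (0.05), SPL4 (-0.10), GLUA-2 (0.19) and NAC5 (0.33 and -0.04), the values being the differences at those probe sets.

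**Figure D4:**
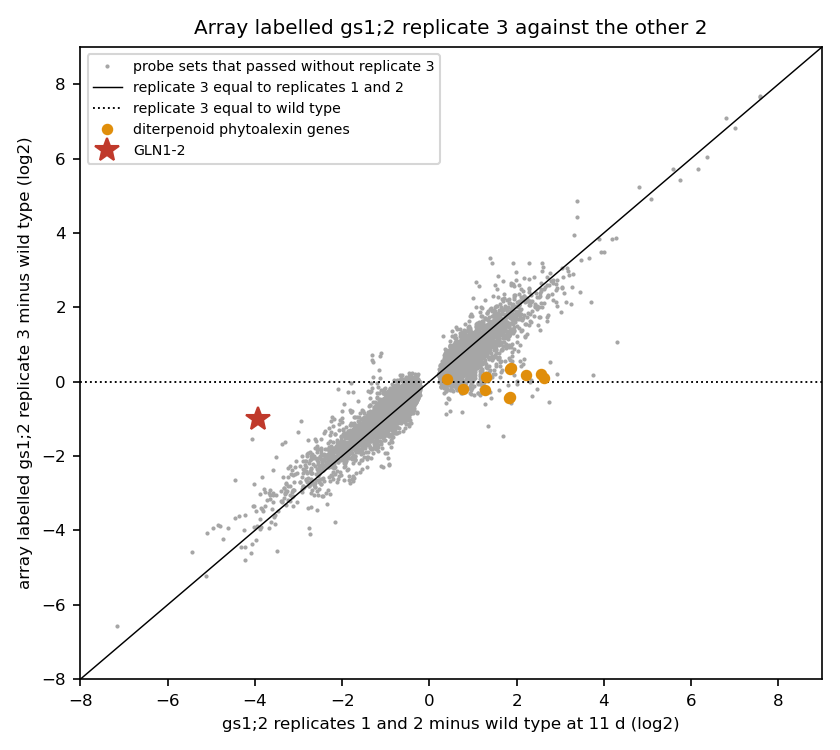
Difference from the wild-type mean at 11 d for the array labelled mutant replicate 3 (vertical axis, log2) against the mean of replicates 1 and 2 (horizontal axis, log2), with 1 grey point for each of 13475 probe sets that passed without replicate 3. Most points follow the diagonal, while GLN1-2 and the 11 diterpenoid phytoalexin genes shown lie toward the dotted line of wild-type level. These 11 of the 16 listed genes are those that passed without replicate 3, and the others are not marked.

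Diterpenoid phytoalexins, momilactones and phytocassanes among them, are defence compounds that rice makes by way of the cyclases CPS2 and CPS4, of kaurene synthase-like enzymes and of cytochromes P450. CPS2 was at 5.02, 6.36 and 3.14 in the arrays labelled mutant and at 3.16, 2.87 and 3.13 in wild type (difference 1.78, SE 0.56, adjusted p = 0.0332), so that replicate 3 lay at wild-type level, and the difference was 2.63 without it. CPS4 was at 5.36, 6.02 and 3.65 in the mutant and at 3.75, 3.37 and 3.29 in wild type (difference 1.54, SE 0.43, adjusted p = 0.0193, and 2.22 without replicate 3). CYP701A8 was at 5.57, 6.26 and 3.58 in the mutant and at 3.75, 3.19 and 3.15 in wild type (difference 1.77, SE 0.52, adjusted p = 0.0247, and 2.55 without). The kaurene synthase-like gene KSL7 was at 5.36, 6.08 and 4.20 in the mutant and at 4.42, 3.38 and 3.72 in wild type (difference 1.37, SE 0.38, adjusted p = 0.0184, and 1.88 without). The P450 gene CYP99A3 was at 6.37, 7.11 and 5.22 in the mutant and 5.29, 4.59 and 4.77 in wild type (difference 1.35, SE 0.35, adjusted p = 0.0116, and 1.86 without). Of 16 genes on the list, 5 rose with all arrays and 11 without replicate 3, and 0 fell in either fit. The count was 1 without mutant replicate 1 or without mutant replicate 2, 1 without wild-type replicate 3 and 0 without wild-type replicate 2, and it was 0 in a fit of the 6 arrays at 11 d, in which the 7 d arrays lend nothing to the estimate of the spread. In 13 of them replicates 1 and 2 were above all wild-type arrays, and in 13 replicate 3 was within or below the range of the wild-type arrays. The mean signal of the list was 4.86, 5.39 and 3.94 in the mutant arrays at 11 d, against 4.21, 3.72 and 3.79 in the wild-type arrays. The 7 d values were 4.16, 4.56 and 4.18 in the mutant against 3.84, 3.75 and 3.77 in wild type. Of genes outside the list, those that follow had replicate 3 lowest among the mutant arrays as well. JAZ13, a repressor of the jasmonate signal, was at 5.79, 6.70 and 4.10 in the mutant and at 3.96, 4.33 and 3.70 in wild type (difference 1.53, SE 0.52, adjusted p = 0.0487, and 2.25 without replicate 3). The laccase gene LAC19 was at 5.07, 5.70 and 3.81 in the mutant and at 3.59, 2.68 and 3.36 in wild type (difference 1.65, SE 0.38, adjusted p = 0.00632, and 2.17 without). The metallothionein gene MT-1-4b was at 7.88, 8.95 and 6.11 in the mutant and at 6.78, 6.24 and 5.30 in wild type and passed only without replicate 3 (2.31, adjusted p = 0.00876).

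**Figure D5:**
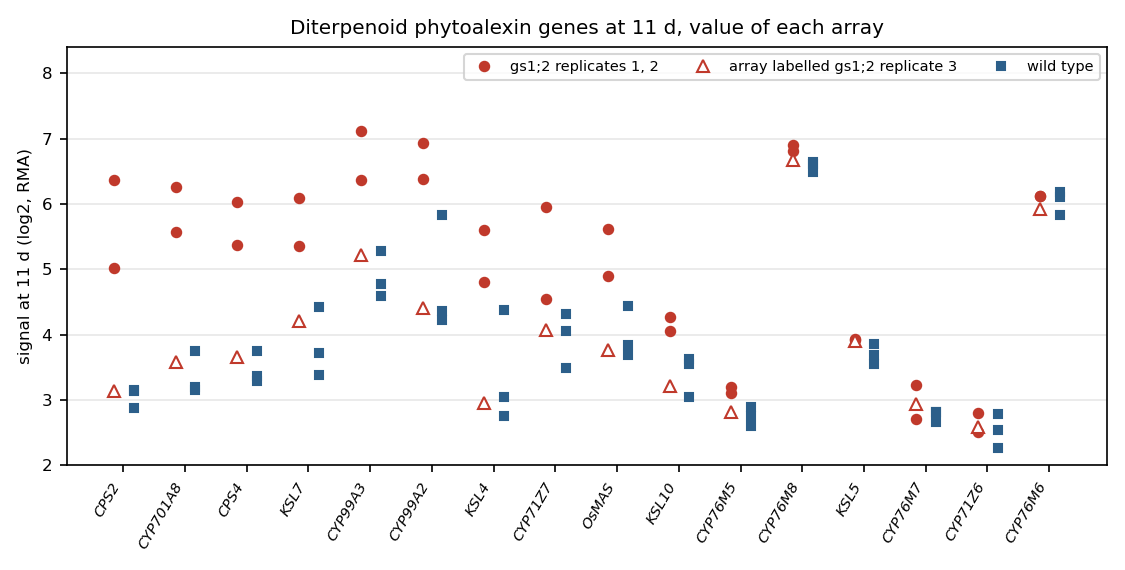
Signal (log2) of each array at 11 d for the 16 diterpenoid phytoalexin genes, ordered by the difference without replicate 3, in red for the mutant, with an open triangle for replicate 3, and in blue for wild type. In the genes at the left, CPS2 to KSL7, replicates 1 and 2 lie above all wild-type arrays, while replicate 3 lies at their level.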

How the data were processed

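Total RNA from 12 samples, 3 for each genotype and age, was hybridised to Affymetrix Rice Genome Arrays. The authors deposited log2 signals. RMA and R 3.1.0 are named in the submitters' processing notes, and the sources used here give no other steps. Scanner files were not used here, so background correction and summarisation could not be varied. Of 57381 deposited rows, 187 control probe sets were left out. A group-means model over the 12 arrays (8 residual degrees of freedom) was fitted in limma 3.58.1 under R 4.3.3 to the deposited log2 values of 57194 probe sets, with contrasts for the 11 d difference, the 7 d difference and the change between them. The p-values were adjusted by Benjamini-Hochberg over all probe sets, with a threshold of 0.05. Simulated data of this layout held changes of 0.5 at 67, of 1 at 67 and of 2 at 66 of 57194 probe sets. The fit recovered 41.8%, 89.6% and 98.5% of these, with 10 false calls among the unchanged probe sets. Far fewer probe sets were changed there than the 14820 that passed in the real data, and the simulated noise was independent between arrays. These rates thus need not hold for the real data. The precision is limited by 3 arrays a group.

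Array medians were 4.942 to 5.003, and no arrays held identical values. In the platform annotation 22436 probe sets had 1 gene, 95 had several and 34663 had none listed. A gene on a list was read at its probe set with the highest mean, and probe sets that end in s_at or x_at can pick up related transcripts. The members of 44 lists, 954 genes, were found by symbol, and the members and lists were chosen with earlier results of these data known. Lists of bHLH, MYB and peroxidase genes were planned and not made, since the annotation names too few. Named genes were the 12 largest changes each way among genes with a descriptive symbol that passed with all arrays and without mutant replicate 3, in groups that do not overlap, the 3 largest each way among other loci, GLN1-2, all nitrogen assimilation genes and up to 4 members a list with the smallest p. The other genes named, mostly to complete counts of a list, were chosen after their values were seen: RR2, RR5, LIR1, THF1, CAO, CHLH, CESA4, CESA7, CESA9, TBL3, PRR95, PRR73, PHYA, phyC, CPS2, JAZ13, LAC19, MT-1-4b, ATG8B, ATG8D, ATG12, NAS3, VIT1, VIT2, DREB1B, DREB1C, LOX3, CAD7, LOG, LOGL1, CKX4, CKX5, CKX11, RPA32A, PCNA, YSL15, SAT4, gcs, DAPB1, AtATP-PRT, H2B.11, SSRP1-A, SSRP1-B, KIN14K, KIN14M, KIN14O, CAD1, CAD8C, SWEET1B, SWEET11, SWEET16, SUT4, COI1A, GAMYB, SLRL1, BZIP23, PP2C53, ABIL1, Hd1, DTH8, FTIP1, SPIN1, PHO1-2, PHO1-3, SPX5, PHR3, NAC5, OsCASP1, Lsi2, SPL16, SGR and SAG12.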

Additional observations from a re-analysis of the deposited data

Results flagged for a closer look

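The genotype difference at 11 d was compared with that at 7 d, by the interaction term of the limma fit, for each of 239 genes named here, and it changed with age at an adjusted p under 0.05 for 180 of them. A value in brackets below is the difference at 11 d minus the difference at 7 d on the log2 scale, so that a positive value means that the mutant stood higher relative to wild type at 11 d than at 7 d. Of the 239 genes, 224 passed at 11 d, many of them named for that, so that a smaller difference at 7 d was favoured by the choice. If the title numbers refer to the growth text, as described above, growth condition cannot be told apart from this change. The time of day of the harvests is not given, and its part in this change was not tested. The share of the named genes is 75.3%, against 38.2% of all genes, and 20.6% of all probe sets passed. Among the 224 named genes that passed at 11 d the share is 79.9%, against 73.5% of all 8368 genes that passed at 11 d. Of the genes with a changed difference, NIA1, BC1, ADC1, KRP6, CESA4, CESA7 and YSL15 also passed at 7 d.

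Among the largest increases the changes were those of APR-like1 (7.76), NIA1 (2.39), AMT1-2 (2.96), SWEET15 (2.90), SWEET2B (2.56), NAS1 (2.87), RR9 (2.93), HSP17.4 (2.44), ADI1 (2.49), BC1 (3.31) and NAAT1 (2.45). Among the largest decreases the changes were those of AMY1.3 (-5.59), OsPP2C45 (-4.41), HSF03 (-3.81), SAUR39 (-4.36), PCL1 (-3.73), BBD1 (-3.44), HXK7 (-3.25), PIN4 (-3.20), GDH2 (-3.24), OsITPK3 (-2.97) and CIPK10 (-3.02). For the loci without a descriptive name the changes were those of LOC4326757 (8.04), LOC4342551 (6.67), LOC4334643 (-5.03), LOC4341299 (-4.86) and LOC4324857 (-5.18). In nitrogen, sulfur and amino acid metabolism the changes were those of GLN2 (0.73), GLT2 (-2.38), GLN1-1 (0.45), NLP3 (0.44), NLP2 (-0.52), SAM2 (0.62), SAT1 (-1.81), SAM1 (0.35), ADC1 (0.65), ASA1 (-0.54), DAHPS1 (1.21), ADC2 (1.05), DAPB1 (0.37) and AtATP-PRT (0.38).

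In cytokinin activation, breakdown and response the changes were those of CKX3 (1.56), CKX5 (-0.60), LOGL6 (-0.97), LOGL9 (-1.58), LOGL3 (-1.65), RR4 (2.24), RR6 (1.38), RR1 (1.67), RR2 (1.43) and RR5 (1.02). For strigolactone genes and SPL factors the changes were those of D14 (-1.99), IPA1 (-0.85), D3 (-1.14), SMAX1L (-0.74), SPL11 (-0.86), SPL4 (-0.55) and SPL1 (-0.61). In photosynthesis and greening the changes were those of PSAG (1.77), PORA (2.11), RCABP69 (1.43), PORB (1.23), CAO (2.19), CHLH (0.95), LIR1 (-2.25) and THF1 (-0.53). In chlorophyll breakdown and autophagy the changes were those of NYC1 (-1.26), OSL2 (-1.01), NOL (-1.09), ATG8C (-0.87), ATG8B (-0.58) and ATG8D (-0.51).

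In cell cycle, replication and chromatin the changes were those of SMR1 (-1.22), KRP6 (-2.23), CYCP2-1 (1.77), CYCD2-2 (0.90), MCM3 (1.11), MCM5 (1.09), OsMCM6 (1.06), MCM2 (1.07), RPA32A (1.36), PCNA (1.12), H2B.10 (0.71), H2B.5 (0.41), H2B.6 (0.30), H2B.7 (0.56) and SSRP1-B (-0.50). For kinesins the changes were those of KIN14L (0.49), KIN5A (0.48), KIN7K (0.39), KIN14K (-0.36), KIN14M (-1.11) and KIN14O (-0.53). In cell wall genes the changes were those of GT43A (1.24), GUT1 (1.82), TBL11 (1.36), TBL3 (-0.79), CESA4 (1.61), CESA7 (1.75), CESA9 (1.37), 4CL2 (1.36), LAC7 (-3.12), CAD2 (1.39), CAD8C (-0.87), LAC23 (1.23), CSLF6 (1.99), EXLA2 (-1.71), CESA5 (0.96) and EXLA4 (0.75). In clock and flowering genes the changes were those of PRR1 (-1.87), GI (-1.33), LHY (1.49), PRR73 (-0.51), PHYA (-0.96), phyC (-0.73), SE5 (-0.78), MADS56 (-0.87), Hd18 (-0.67) and SPIN1 (0.68).

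In sugar and carbon metabolism the changes were those of SWEET14 (-3.17), SUT1 (-1.81), SUT4 (0.52), SUS4 (-2.42), SPS2 (LOC9267741) (1.12), PPDK2 (-2.33), PPDKB (-2.09) and NADP-ME2 (-0.50). In metal and phosphate genes the changes were those of NAS2 (2.33), NAS3 (0.88), ZIP6 (-0.53), ZIP7 (-1.10), VIT1 (1.19), VIT2 (-1.52), YSL15 (-1.78), SPX4 (-1.12), SPX5 (-0.86), PHR3 (-1.01), MGD1 (0.86), MGD3 (0.74), PHT1-1 (-0.99) and PHO1-3 (1.41). In the other hormone pathways the changes were those of ARF10 (1.79), PIN5 (1.99), GA20OX3 (-0.61), gid1 (-0.75), ks1 (-0.40), SLRL1 (0.46), SAPK9 (-2.89), SAPK10 (-1.02), SAPK1 (-1.30), rab25 (-1.62), RAB21 (-2.27), EIL1A (-1.15), ERS1 (-0.66), ETR2 (-1.08), OPR1 (1.78), COI1B (-0.63), COI1A (-0.49) and LOX3 (-3.20). Among transcription factors, heat shock and aquaporin genes the changes were those of WRKY62 (-2.05), NAC6 (-2.58), NAC068 (-2.08), NAC2 (0.47), MADS57 (-0.65), BZIP52 (-2.55), WOX6 (-2.64), WOX11 (-2.95), DREB1E (1.55), DREB1C (0.64), HSP26.2 (1.39) and TIP4-1 (-1.96). Among markers of tissues the changes were those of OSH71 (-0.43), OSH6 (0.51), SCR1 (1.5), SHR1 (0.69), OsCASP1 (-1.80), Lsi2 (1.12), RPP16 (-0.48), GLUA-2 (-2.30) and FON1 (0.47).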

How the results depend on the processing

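GLN1-2 passed in every alternative run without a minimum change, with differences of -3.94 to -2.41 over those and the fit as reported. A test against a minimum change of 0.5 left 2604 probe sets, 980 of them higher and 1624 lower in the mutant, and counting only changes of at least 1 left 2465, of which 1004 were higher and 1461 lower. The other alternatives, namely each array left out, the 11 d arrays alone, trend and robust moderation, the dimmest 25% of probe sets left out, a common median, a new quantile normalization and array quality weights, gave 11606 to 18354 probe sets, within 1.5 times the reported count. Leaving out 1 array in turn gave 11606 to 15212 probe sets at 11 d. The change of the difference with age passed for 9610 to 12187 with 1 array left out. Over all alternatives with 7 d arrays and no minimum change it passed for 9610 to 12746. Of 225 named probe sets that passed, 183 passed in each of the 19 alternatives without a minimum change. The other 42 were lost in at least 1 of these, without a change of sign. Differences under 0.5, such as those of H2B.6 (0.31) and KIN7K (0.43), cannot pass a test against that minimum. The list counts below leave out the settings with a minimum change as well. JAZ13, CKX4, OSH6, DAPB1 and OsCASP1 were lost in over 10 of 19. Of 1760 list counts recomputed, 156 moved by over 1.5 times, in 37 of the 88 counts (2 for each list), of which 30 were counts under 5. The counts of at least 5 that moved were the increases in aromatic and other amino acid synthesis (3 to 7 over all alternatives, against 5), jasmonate (6 to 13, against 7), diterpenoid phytoalexins (0 to 11, against 5), homeodomain factors (5 to 9, against 8) and root markers (3 to 6, against 6), and the decreases in dehydration proteins (3 to 6, against 5) and aquaporins (5 to 11, against 8). Among those that stayed within 1.5 times were the increases in type-A response regulators, photosynthesis, DNA replication, kinesins, secondary walls and lignin and the decreases in clock and autophagy genes, while increases in autophagy genes, 0 as reported, were 0 to 2. Among 15 that did not pass, the sign turned for AMT1 (-0.017 without wild-type 11 d replicate 3, -0.034 without mutant 11 d replicate 2; -0.034 to 0.366 over single arrays left out), for AMT2-2 (0.049 without wild-type 11 d replicate 3, 0.085 without mutant 11 d replicate 3, also with the 11 d arrays alone, and 0.014 with array weights; -0.119 to 0.085), for AMT2-3 (-0.020 without wild-type 11 d replicate 2; -0.020 to 0.258) and for GLN1-3 (0.120 without mutant 11 d replicate 2; -0.219 to 0.120). The cause was not tested. The fit of the 11 d arrays without replicate 3 was added after the data were seen. No paired analysis was possible because the replicate numbers of the mutant arrays (1 to 3) and of the wild-type arrays (13 to 15) at 11 d are not shared.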
